A study of Mus musculus with 19 samples.

Results

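The 35 genes described here are known interferon-stimulated genes, chosen by name from a list and found, all 35, among the 23284 mouse genes measured. The list was drawn up with earlier results of these data known. The shares of all genes given beside the counts below are therefore a background and no test of the list. They fall into 4 signalling factors, 5 sensors of foreign RNA or DNA, 16 antiviral effectors, 4 genes of the ISG15 system and the PARP family, and 6 genes best known from the response to interferon gamma. Their levels were taken from RNA-seq of 6 samples of cultured mouse embryonic fibroblasts (MEFs), 6 prostate samples and 7 renal grafts. The MEFs came from E13.5 embryos on a C57BL/6 background, were labelled as heterozygous for a targeted LacZ allele, and pooled male and female littermates in the study's protocol. The prostate samples were wild-type C57BL/6 tissue from mice of 6 weeks. The grafts held induced epithelial (iEpt) cells, made from fibroblasts with the pluripotency factors OSKM, and rat urogenital mesenchyme, and grew for 6 weeks under the kidney capsule of nude mice. The study names 5 of them as iEpt+NAF grafts, which also carried prostate transcription factors introduced with lentiviruses. The other 2, FS022 and FS023, lie in a table of their own and would by elimination be iEpt only grafts, so their values are given without a test. Nude hosts lack a thymus and mature T cells and keep their macrophages, B cells and natural killer cells. Reads from rat cells that align to mouse genes would be counted with them, and their part was not tested.

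Cells make type I interferons (alpha and beta) and type III interferons (lambda) when sensors detect viral nucleic acids, and lymphocytes make type II interferon (gamma). Binding to the receptors activates the kinases JAK1, TYK2 or JAK2. The factor ISGF3, which contains STAT2 and IRF9, then binds the interferon-stimulated response element of many antiviral genes, while the response to interferon gamma works mainly through the GAS element. Tissues keep a low, tonic level of this programme in the absence of infection, and macrophages and other leukocytes express many of its genes strongly.

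The response element can be read in the promoters of some members, and examples from each role are printed to show how its letters vary between genes. RefSeq promoters (GRCm38.p6, 250 bases before to 50 after the start) were at hand for 26 of the 35 members. The letters of the response element, searched as GAAA, any 2 bases and GAAA again (or TTTC, any 2 bases and TTTC, its other strand), were in the promoters of 13 of the 26, against 3.99% of 27025 genes. The GAS letters TTCNNNGAA, which read alike on both strands and can share bases with the first motif, were in 6 of the 26 (23.1%) against 9.55% of all genes. In the lines that follow, 30 bases are given 5′ to 3′ on the strand of the gene, with the matches in capitals.
Stat2, chr10:128270266-128270295, plus strand: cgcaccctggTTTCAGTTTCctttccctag
Ifih1, chr2:62646206-62646235, minus strand: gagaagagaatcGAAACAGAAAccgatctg
Ddx58, chr4:40239804-40239833, minus strand: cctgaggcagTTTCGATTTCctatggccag
Ifit1, chr19:34640785-34640814, plus strand: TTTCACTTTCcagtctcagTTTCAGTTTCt
Rsad2, chr12:26456553-26456582, minus strand: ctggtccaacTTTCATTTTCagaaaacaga
Oas1a, chr5:120907523-120907552, minus strand: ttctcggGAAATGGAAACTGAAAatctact
Oas3, chr5:120777715-120777744, minus strand: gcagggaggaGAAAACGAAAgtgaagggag
Isg15, chr4:156200871-156200900, minus strand: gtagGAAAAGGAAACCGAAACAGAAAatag
Gbp3, chr3:142559992-142560021, plus strand: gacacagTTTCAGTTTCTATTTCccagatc
Cxcl10, chr5:92349083-92349112, minus strand: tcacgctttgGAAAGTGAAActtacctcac
The Isg15 promoter held 3 overlapping matches, 57 to 78 bases before the start, and those of Ifit1, Oas1a and Gbp3 held 2 each. Oas1a and Oas3 both lie on chromosome 5 and both have the element, and their levels in prostate differed widely, as described later. A match is a run of letters and does not show that a factor was bound. Of the 13 members with the motif, 7 passed as higher in prostate than in MEFs and 11 as higher in the grafts. Of the 13 with a promoter entry and no match, 9 and 12 did.

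The level of a gene is given as the deposited log2 value, on which 1 unit is a doubling. The 17 MEF, prostate and iEpt+NAF samples had 16767287 to 26152338 reads on genes, and 3 reads correspond there to values between 1.68 and 2.34, and to 3.12 and 2.70 in FS022 and FS023. Values at or below these are taken as not detected, and values of low genes carry scatter. Such limits cover counting error only. MEF samples FS015 and FS020 carried macrophage RNA, with the log2 of the summed level of 9 markers at 13.63 in FS015, slightly less in FS020 and 7.86 to 8.26 in the other 4, although the study's cultures for reprogramming were sorted against leukocytes. The summed level of 6 prostate secretory genes was 10.34 to 11.99 on that scale in MEFs FS015 to FS018, 7.51 and 7.33 in FS019 and FS020, and 20.44 to 21.44 in prostate. In grafts the same 6 genes summed to 9.86 to 12.71, far below prostate and overlapping MEFs FS015 to FS018. The RNA of whole grafts, which held other tissue as well, thus did not show the secretory markers at the level of mature prostate. The study detected the prostate secretory protein Probasin by immunostaining in iEpt+NAF grafts. It also reports that histology and immunostaining showed prostate content in the recombinants it sequenced. Grafts held host tissue, with 8 kidney markers at a log2 sum of 10.33 to 17.37. The fibroblast markers were highest in MEFs, and the epithelial markers were high in prostate and grafts.

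The 35 genes were highest in the grafts, intermediate in prostate and lowest in MEFs. Over the 35 genes, graft FS007 had a median value of 11.03 and the other grafts (FS002, FS005, FS003, FS008) had 8.63, 8.97, 9.04 and 9.27. The medians of the 6 prostate samples lay between 7.52 and 9.25 (middle value 7.58) and those of the 6 MEF samples between 5.09 and 7.47 (middle value 5.79). For 28 of the 35 genes the mean fell in the order grafts, prostate, MEFs. Prostate had the highest mean for 5 genes and MEFs for 1, Ddx58. In bulk tissue, more cells of a type and more RNA per cell cannot be told apart. The heat map of all members shows these levels sample by sample.

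**Figure D1:**
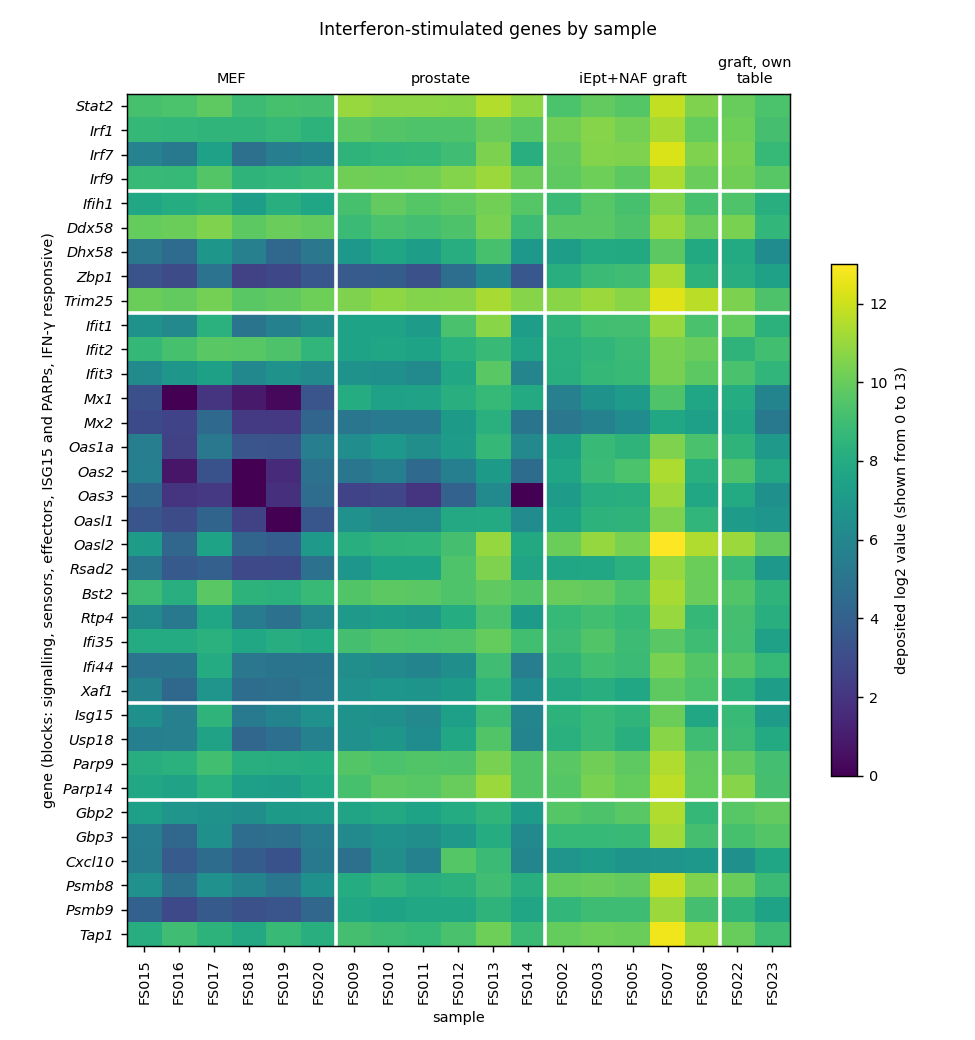
Deposited log2 value (colour) of each of the 35 genes (rows, in blocks by role) in each sample (columns), for 6 MEF, 6 prostate, 5 iEpt+NAF graft samples and, in a separately normalized table, the other 2 grafts. Columns FS007, FS013 and FS017 are brighter than the rest of their groups over most rows.

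The first comparison asked how far adult prostate differs from fibroblasts, the tissue that the conversion aimed for from the cells it started with. Of the 35 genes, 24 passed as higher in prostate, beside 27.8% of the 14560 genes tested (limma on the log2 values, Benjamini-Hochberg adjusted p under 0.05 and a log2 fold change of at least 1). Only Ifit2 passed as lower, beside 20.5% of all genes, and 10 did not pass. The median log2 fold change was 1.64 over the 35 genes and 0.17 over all genes. For 18 of the 35 genes every prostate sample was above every MEF sample, as it was for 37.4% of all genes. All 35 passed the filter on low values, Mx1, Oas3 and Oasl1 only through the other group, since their MEF mean was below the linear minimum of 10.

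The signalling factors rose in prostate, 4 of 4. Stat2 and Irf9, which encode parts of ISGF3, were 3.11-fold (log2 fold change 1.64, SE 0.15, adjusted p = 4.16e-07 from limma) and 2.97-fold higher. Irf7, which amplifies interferon alpha production, was at 8.20 to 10.45 in prostate (median 8.63) and at 4.80 to 7.46 in MEFs (median 5.67), and was 8.61-fold higher. Irf1, a target of interferon gamma, was 2.05-fold higher, with an SD of 0.12 in MEFs and 0.21 in prostate. None of the 4 overlapped between the groups. Without prostate FS013, or with quantile scaling, the change of Irf1 lay just under the minimum, at 0.97 and 0.95.

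The sensors were less uniform. Ifih1, which encodes the RNA sensor MDA5, and Dhx58, which encodes LGP2, passed with log2 fold changes of 1.83 (SE 0.20) and 2.38 (SE 0.46). Trim25, a ubiquitin ligase of the RIG-I pathway, was higher in every prostate sample than in every MEF, by 0.78, below the minimum size. Ddx58, which encodes RIG-I itself, had a lower mean in prostate (9.31 ± 0.57, SD, n = 6) than in MEFs (10.02 ± 0.25, SD, n = 6), by 0.71 with an adjusted p of 0.0117 from limma, and did not pass for size. Zbp1, a sensor of Z-form nucleic acids that can trigger necroptosis, was low in both, at a median of 3.79 in prostate and 3.14 in MEFs.

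Among the effectors, 11 of 16 passed as higher in prostate and 1 as lower. Mx1, a dynamin-like GTPase known to be inactivated by a deletion in C57BL/6 mice, showed the largest change of all members. Its prostate values lay between 7.44 and 8.73 (median 8.0), its MEF values between -2.28 and 3.42 (median 1.49). It was at or below 3 reads in 3 MEF samples, so that the size of its change rests on scattered low values, and every prostate sample lay above every MEF sample by more than 4 units (log2 fold change 6.71, SE 0.81, adjusted p = 4.45e-06 from limma, exact two-sided permutation p = 0.00216, the smallest that 6 against 6 samples allow). Mx1, Rsad2, Psmb9, Oasl1 and Oasl2 are detailed because they had the largest changes among members that passed without overlap. Their separation, and the smallest permutation p of Mx1 here and below, followed from that choice. The MEF samples form 3 close pairs and may not be 6 independent units. With each pair averaged, the Mx1 change had an adjusted p of 1.62e-05 from limma and an exact permutation p of 0.0119, the smallest that 6 against 3 allow. Rsad2, which encodes the antiviral enzyme viperin, was at 6.82 to 10.47 in prostate (median 7.57) and 2.87 to 5.12 in MEFs (median 3.84). It rose by 4.32 (SE 0.62) with no overlap. Oasl1, which represses translation of Irf7, was at 6.11 to 7.94 (median 6.41) in prostate and -0.25 to 4.17 (median 3.23) in MEFs, a log2 fold change of 4.09 (SE 0.66). Oasl2, an oligoadenylate synthetase-like protein, was at 7.91 to 10.96 (median 8.48) in prostate and at 3.91 to 7.53 (median 5.66) in MEFs. For both genes the groups were apart, although the highest MEF sample was within 1 unit of the lowest prostate sample for Oasl2. Of the oligoadenylate synthetases, whose product activates RNase L, Oas1a and Oas2 passed with log2 fold changes of 2.68 and 2.76, whereas Oas3 had a mean of 2.89 in prostate and 2.36 in MEFs (adjusted p = 0.657 from limma). With quantile scaling Oas2 lost its call, at 1.92 (adjusted p = 0.0713 from limma).

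The Ifit genes, which bind foreign RNA, lie side by side on chromosome 19 (mm9, GENCODE M1) and did not move together. Ifit2 (34625184 to 34650909) was at 7.52 to 8.74 in prostate (median 7.62) and at 8.54 to 9.65 in MEFs (median 9.30), lower by 1.28 (SE 0.26, adjusted p = 0.000456 from limma). Prostate FS013 alone reached into the MEF range. Ifit3 (34658021 to 34663221) was at a median of 6.59 in prostate and 6.43 in MEFs and did not pass (adjusted p = 0.347 from limma). Ifit1 (34715361 to 34724499), next to them, passed as higher, with a log2 fold change of 1.88 (SE 0.66) and overlap between the groups. Without MEFs FS015 to FS018 it lost the call, at 2.17 (adjusted p = 0.0503 from limma). The labels and methods do not say how reads shared with close copies such as Ifit3b, or among the Oas, Mx and Gbp families, were counted, so single members of these families are less certain.

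Isg15, the ubiquitin-like protein that gives the system its name, did not pass between prostate and MEFs (log2 fold change 0.51, SE 0.57, adjusted p = 0.415 from limma). Its prostate values ran from 5.96 to 8.92 and its MEF values from 5.43 to 8.43. Usp18, which removes ISG15 from proteins and damps the receptor, passed at 1.56 (adjusted p = 0.0344 from limma), and did not without prostate FS012 or FS013 or any of MEFs FS016, FS018 and FS019, at 1.10 to 1.57. The ADP-ribosyltransferases Parp9 and Parp14 rose by 1.31 and 2.20.

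Of the genes tied to interferon gamma, 4 of 6 passed as higher in prostate. Psmb9, a subunit of the immunoproteasome that cuts peptides for MHC class I, was at 7.52 to 8.46 in prostate (median 7.72) and 2.89 to 4.28 in MEFs (median 3.55). This 18.8-fold difference left more than 3 units between the groups. Its partner subunit Psmb8 rose 5.46-fold and the GTPase Gbp3 2.88-fold. With quantile scaling the log2 fold change of Gbp3 was 0.85, under the minimum size. The peptide transporter Tap1, 0.78 higher, and Gbp2, 0.84 higher, fell short of the minimum. Cxcl10, a chemokine that draws T cells, varied more in prostate than any other member except Oas3, with 9.58 in FS012, 8.86 in FS013 and 4.78 to 6.41 in the other 4. It passed (log2 fold change 2.52, SE 0.77, adjusted p = 0.00883 from limma), and lost the call with quantile scaling, at 1.70, and without MEFs FS015 to FS018.

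**Figure D2:**
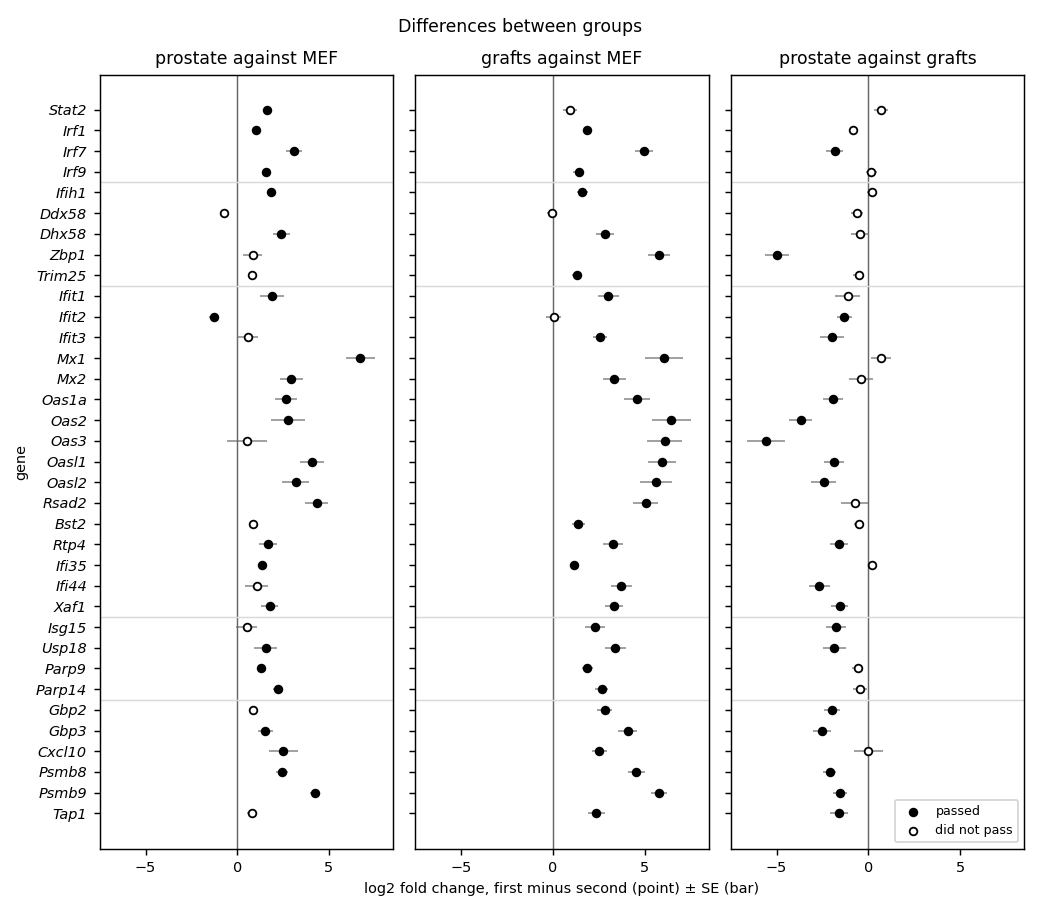
Log2 fold change (point) and SE (bar) of each of the 35 genes in the 3 comparisons, filled where the gene passed. Points lie to the right of 0 for 33 genes in prostate against MEFs and 34 in grafts against MEFs, and to the left for 30 in prostate against grafts.

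The second comparison set the iEpt+NAF grafts against the MEFs, the kind of cell that their epithelium came from. It shares the 6 MEF samples with the first, so that the counts are not independent. Here 32 of the 35 genes passed as higher in the grafts, beside 29.9% of the 16121 genes tested, and none as lower, beside 12%. The median log2 fold change was 3.01 over the 35 genes and 0.26 over all genes, and for 30 every graft was above every MEF sample (28.4% of all genes). The exceptions were Ddx58, at 9.96 against 10.02, Ifit2, at 9.21 against 9.17, and Stat2, which was 0.95 higher (adjusted p = 0.0467 from limma) and missed the minimum size.

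The 5 members with the largest changes among those that passed without overlap were effectors and a sensor. Their separation from the MEFs, and the smallest permutation p of Zbp1 given below, followed from that choice. Of the 5, Mx1, Oas3 and Oasl1 passed the filter on low values only through the grafts, since their MEF mean was below the linear minimum of 10. With the grafts in the order of their sample numbers (FS002 first and FS008 last), Oas2 was at 7.71, 8.86, 9.31, 11.38 and 8.24, and at -0.18 to 5.59 in MEFs (median 2.40). Oas3 was at 7.19, 8.12, 8.15, 11.05 and 7.75 in the same order, and at -0.65 to 4.67 in MEFs (median 2.08). Every graft was more than 2 units above every MEF sample for both genes, and both were at or below 3 reads in MEFs FS016, FS018 and FS019, with log2 fold changes of 6.46 (SE 1.08, adjusted p = 0.000319) and 6.10 (SE 0.97, adjusted p = 0.000223, both from limma). The 2 macrophage-bearing MEF samples FS015 and FS020 had the highest MEF values of both, 5.59 and 4.87 for Oas2 and 4.22 and 4.67 for Oas3, and the part of those cells was not tested.

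Mx1 was at 5.64, 6.61, 7.15, 9.43 and 7.71 in the 5 grafts, a log2 fold change of 6.04 (SE 1.03). Oasl1 was at 7.55, 8.40, 8.48, 10.51 and 8.56, or 5.96 (SE 0.76) above the MEF mean. Zbp1 was at 8.17, 8.87, 8.99, 11.35 and 8.40, against 2.54 to 4.94 in MEFs (log2 fold change 5.81, SE 0.60, adjusted p = 9.52e-06 from limma, exact two-sided permutation p = 0.00216, the smallest that 5 against 6 samples allow, and 0.0179 with the MEF pairs averaged, the smallest that 5 against 3 allow). The grafts and MEFs were apart for all 3 genes by the choice described above, and FS007 was the highest graft for each.

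By role, 3 of 4 signalling factors, 4 of 5 sensors, 15 of 16 effectors, 4 of 4 ISG15 and PARP genes and 6 of 6 interferon gamma genes passed. Irf7 rose 30.8-fold, more than any other signalling factor, and Oasl2 48.8-fold. Psmb9 rose 54.2-fold, Psmb8 23.6-fold and Gbp3 16.8-fold. These 2 subunits and Tap1 lie within the same stretch of chromosome 17 (mm9, 34318932 to 34338399). Isg15 was at 8.38, 8.78, 8.49, 10.09 and 7.77 in the grafts, 2.30 above the MEF mean, and MEF FS017, at 8.43, reached into the range of the grafts. Cxcl10 was almost the same in all 5 grafts, from 6.75 to 7.20, and 2.52 above the MEF mean (adjusted p = 0.000257 from limma). With quantile scaling this difference was 0.44 and the call was lost (adjusted p = 0.355 from limma), as it was for Mx2 (0.92) and Ifi35 (0.82).

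The third comparison set prostate against the iEpt+NAF grafts, the tissue made against the tissue aimed for. It shares samples with each of the first 2. None of the 35 genes passed as higher in prostate, beside 10.3% of the 16353 genes tested, and 19 passed as lower, beside 23%. With no minimum fold change the counts were 0 and 20. Without graft FS007, Stat2 and Mx1 passed as higher in prostate, at 1.09 and 1.19. The median log2 fold change was -1.53 over the 35 genes and -0.11 over all genes, and for 7 every prostate sample was below every graft (19.8% of all genes). All genes together were called lower in prostate more often than higher, and this depended on scaling: 30.9% of the called genes were higher in prostate with the deposited values and 53.9% with quantile scaling, which moved the median of all genes to 0.12. Under quantile scaling 13 members passed as lower and none as higher, with a median of -0.97.

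Effectors and interferon gamma genes made up 15 of the 19. Oas3 was at -0.31 to 6.20 in prostate (median 2.71), below each of the 5 grafts, and was at or below 3 reads in FS011 and FS014 (log2 fold change -5.56, SE 1.04, adjusted p = 0.000929 from limma). Zbp1 was at 3.22 to 6.09 in prostate (median 3.79), lower by 4.98 (SE 0.64, adjusted p = 6.78e-05 from limma). Oas2 was at 4.43 to 7.06 in prostate (median 5.35), lower by 3.70 (SE 0.64). These 3 genes, with Gbp3 and Psmb8, were chosen for detail among members that passed without overlap, so that their separation followed from the choice. Each of the 3 kept its direction and call in every alternative fit.

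Gbp3 was at 8.72, 8.72, 8.78, 11.19 and 9.16 in the grafts and at 6.19 to 8.07 in prostate (median 6.55), lower in prostate by 2.55 (SE 0.48). Psmb8 was at 9.94, 10.04, 9.90, 11.98 and 10.47 in the grafts and at 8.04 to 9.01 in prostate (median 8.24), lower by 2.11 (SE 0.35, adjusted p = 0.000426 from limma). Psmb9 and Gbp2 were separated too, lower by 1.53 and 1.98. The members without overlap were 7 of 35, a share near the 19.8% of all genes. Separation from the grafts therefore did not set the members apart from other genes. Isg15 and Usp18 passed as lower in prostate by 1.78 and 1.85, with overlap through FS013. The Usp18 call was lost with quantile scaling (-1.34) and without any 1 of graft FS007 and prostates FS009, FS010, FS011 and FS014, at -1.42 to -1.79.

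The signalling factors and RNA sensors mostly did not pass between prostate and grafts. Irf7 (1.84 lower in prostate) and Zbp1 were the only ones of these 9 genes that did. Prostate had the higher mean for Stat2 (10.90 ± 0.31, SD, n = 6, against 10.22 ± 1.00, SD, n = 5), Irf9, Ifih1, Mx1 and Ifi35, and none of the 5 differences passed, with log2 fold changes of 0.17 to 0.69. Cxcl10 had a difference of -0.01 (SE 0.78), an estimate that the prostate spread leaves wide. Over the 3 comparisons, 11 genes rose in prostate and in grafts against MEFs and were lower in prostate than in grafts. Another 12 rose in both and did not pass between them, and 7 rose in grafts against MEFs, were lower in prostate than in grafts and did not pass between prostate and MEFs. Those 7 were Zbp1, Ifit3, Oas3, Ifi44, Isg15, Gbp2 and Tap1.

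Within each group 1 sample stood above the others for most members. In the grafts, FS007 had the highest value for 34 of the 35 genes, where it was highest for 25.9% of all genes, and 33 members were at least 1 unit above the median of the other grafts. Prostate FS013 was highest for 34 of 35, against 16.0% of all genes. MEF FS017 was highest for 24 of 35, against 17.3%. The exception in the grafts and in prostate was Cxcl10, highest in FS003 and in FS012. Of the 11 MEF exceptions, 5 were highest in FS015 and 4 in FS020. The median distance of the members from the other samples of the group was 1.82 in FS007, 1.68 in FS013 and 1.08 in FS017, while the median over all genes was within 0.05 of 0 in each. Of 39 further interferon-stimulated genes, FS007 was highest for 34 of the 38 above the minimum level in grafts, FS013 for 33 of 37 in prostate and FS017 for 15 of 32 in MEFs.

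**Figure D3:**
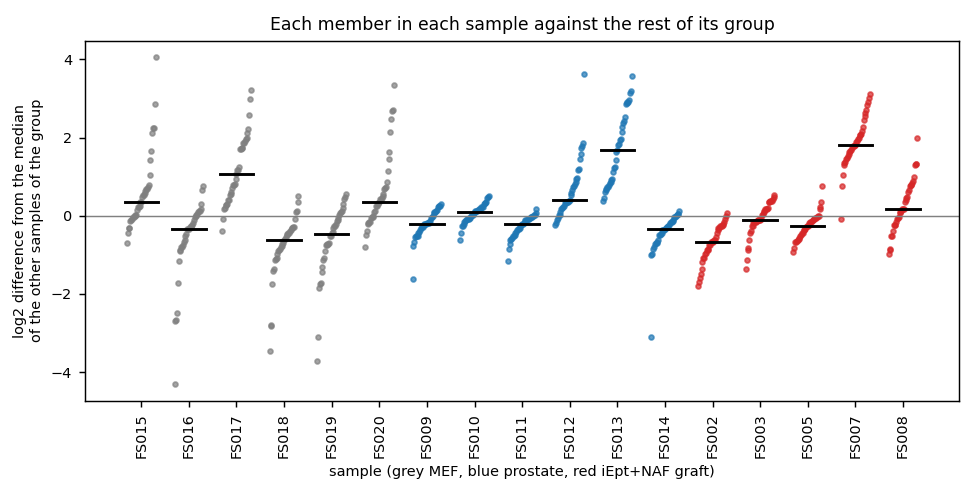
Difference on the log2 scale of each of the 35 genes (points) from the median of the other samples of its group, by sample, with the median as a bar (grey MEF, blue prostate, red iEpt+NAF graft). The bars lie at 1.08, 1.68 and 1.82 in FS017, FS013 and FS007 and between -0.66 and 0.41 in the other 14 samples.

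The FS017 difference could be read against a close partner. FS017 and FS018 were the most alike of the MEF samples by their counts, with a chi-square per degree of freedom of 5.47, and their deviations from the MEF mean were correlated across genes (r = 0.90). Yet 34 of the 35 genes were higher in FS017, 22 of them by at least 1 unit, while the median over all genes differed by 0.00. Of 13088 genes above the minimum level in this pair, 72 (0.55%) were at least 1 unit higher in FS017, and 19 of those were members and 8 further interferon-stimulated genes of a fixed list. With both samples above 5, 17 of 11616 genes were, 9 of them members and 3 of that list. The other 5, named after their values were seen, were Apol9a, D14Ertd668e, Slfn8, Rpl24 and Rpl27. Ifit1 was at 8.31 in FS017 and 5.02 in FS018, Isg15 at 8.43 and 5.43, and Ifi44 at 8.02 and 5.14. Neither of the other close pairs showed this, with a median difference of 0.05 between FS015 and FS020 and of 0.07 between FS016 and FS019. These are single samples and were compared without a test.

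**Figure D4:**
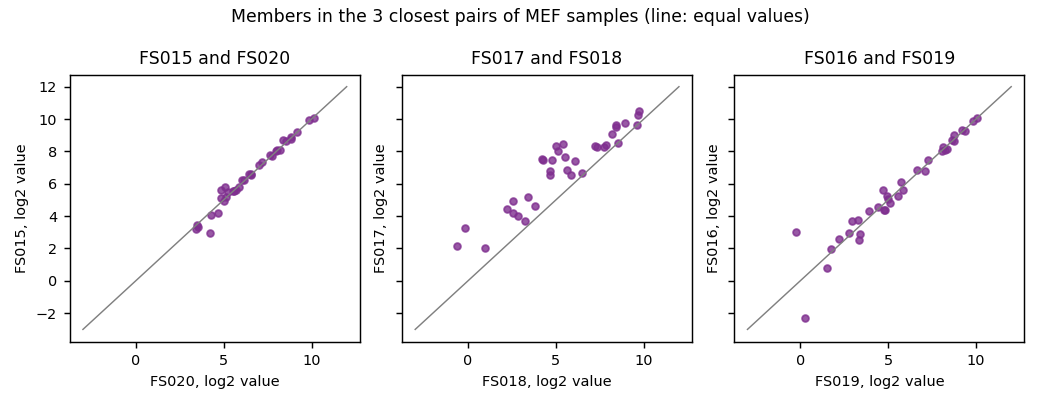
Log2 values of the 35 genes (points) in the 3 closest pairs of MEF samples, 1 sample on each axis, with a line of equal values. In the middle panel 34 points lie above the line, by up to 3.45 for Oas2. In the others the median point lies within 0.07 of the line, with Oasl1 (3.25) and Mx1 (-2.58) farthest off it in FS016 against FS019 and Mx2 (-1.29) in FS015 against FS020.

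FS007, FS013 and FS017 were left out together, a choice made after their values were seen. Then 25 of 34 genes tested passed as higher in prostate than in MEFs, 32 of 35 as higher in grafts than in MEFs, and 20 as lower and 1, Mx1, as higher in prostate than in grafts. The shares of all genes called in these directions were 27.6%, 29.9%, 24.9% and 10.2%. The number of members that did not overlap went from 18, 30 and 7 to 27, 32 and 20, while the share of all genes that did not overlap, in either direction, went from 66.7%, 47.3% and 37.2% to 68.8%, 53.5% and 45.6%, since fewer samples overlap less easily. The samples left out were those highest in their groups for most members. The larger shift of the members therefore followed at least in part from that choice.

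Leukocyte markers were given beside the members because leukocytes express them. The log2 sum of the 9 macrophage and monocyte markers was 13.52 to 14.72 in grafts, 10.96 to 12.78 in prostate and 7.86 to 13.63 in MEFs, and all 9 passed as lower in prostate than in grafts. MEFs FS015 and FS020, whose marker sums were near that of the lowest graft (13.52), had member medians of 6.22 and 6.15, above the 5.27, 5.43 and 5.09 of FS016, FS018 and FS019 and below every graft, and FS017, with the lowest marker sum of all, had 7.47. Graft FS007, at 13.87, lay within the other grafts for these markers. Its general leukocyte, T cell, B cell, natural killer cell and dendritic cell markers were the highest of the grafts, at log2 sums of 11.99, 8.75, 6.49, 8.56 and 10.11. Prostate FS013 had the highest macrophage sum of the prostate samples, 12.78, and was the highest of them for 7 of 7 MHC class II genes. The part of these cells in the levels of the members was not tested.

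**Figure D5:**
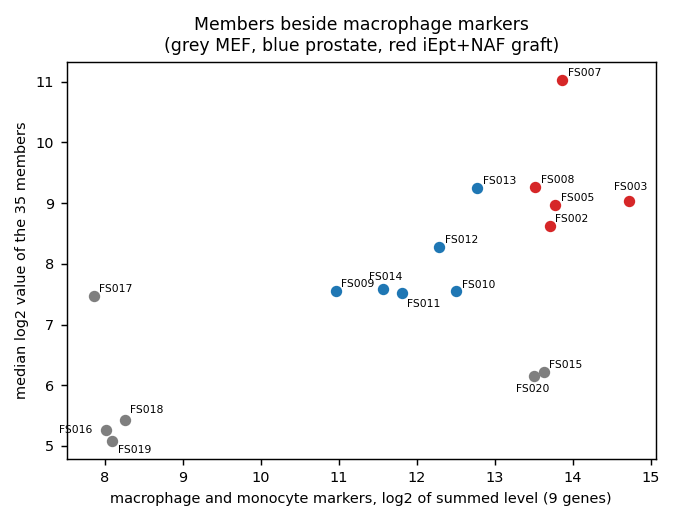
Median log2 value of the 35 genes against the log2 of the summed level of 9 macrophage and monocyte markers, 1 point per sample (grey MEF, blue prostate, red iEpt+NAF graft). FS015 and FS020 sit near the lowest graft (13.52) on the marker axis with medians of 6.22 and 6.15, below every graft.

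The interferons themselves were scarcely detected. Of 13 interferon genes, 8 had no value above 3 reads in any of the 17 samples, among them all 6 interferon alpha genes measured, Ifng and Il28a. Ifnb1 exceeded it only in prostate FS012, at 3.43, the sample with the highest Cxcl10. Ifne, an epithelial type I interferon, exceeded it in 4 grafts and 2 prostate samples, with a highest value of 3.54. None of the 13 genes passed the filter on low values. In FS023, Ifng was at 4.08, above the limit of that sample.

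The receptors and kinases of the pathway moved in both directions. Ifnar1, a chain of the type I receptor, was lower than in MEFs both in prostate (9.88 against 11.02, a log2 fold change of -1.14) and in grafts (10.26, a fold change of -0.76, below the minimum). Jak1 fell by 1.70 in prostate and by 1.64 in grafts, with no overlap. Il28ra, the interferon lambda receptor chain that epithelium carries, rose by 4.97 in prostate (SE 0.28) and by 4.59 in grafts (SE 0.40). Tyk2 was 0.75 higher in prostate than in MEFs, below the minimum, at an adjusted p of 2.55e-06 from limma.

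Of 17 genes that lead to interferon production, 4 passed as higher in prostate and 5 as higher and 1 as lower in grafts, against MEFs, shares near the 27.8% and 29.9% of all genes. Irf8, a factor of myeloid cells, rose by 4.56 and 5.79, and Tmem173, which encodes the DNA sensor adaptor STING, fell by 1.04 in grafts. Among 9 negative regulators, Sigirr had means of 9.24 and 8.56 in prostate and grafts and of 1.57, below the level of 3 reads, in MEFs. Ptpn6, a phosphatase of leukocytes and epithelium, rose by 3.88 and 3.87. The feedback inhibitors Socs3 and Socs1 fell in prostate by 2.45 and 1.39, and Socs3 was 2.87 lower in prostate than in grafts.

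The 39 further interferon-stimulated genes followed the members. Of 37 tested, 21 passed as higher in prostate than in MEFs and 28 as higher in grafts, beside 27.8% and 29.9% of all genes. None passed as lower, beside 20.5% and 12% of all genes. Gbp4 had a mean of 5.85 in prostate and 7.32 in grafts and, in MEFs, one below the level of 3 reads, at -0.25, and Sp100 rose by 4.88 in prostate. Between prostate and grafts 20 of 38 passed as lower, beside 23% of all genes, among them Ifi47 (-4.10) and Ifitm1 (-3.20). Of 12 MHC class I genes, 9 rose in prostate and 11 in grafts, with H2-K1 higher by 3.65 and 4.50. All 7 MHC class II genes rose in both, with Cd74, the invariant chain, higher by 9.46 in grafts. The same 27.8% and 29.9% of all genes stand beside these counts. Class II is carried mainly by macrophages, dendritic cells and B cells and can be induced by interferon gamma in other cells.

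The 2 grafts of the smaller table, FS022 and FS023, had 6629662 and 9662056 reads on genes, and levels across the tables are set side by side without a common normalization. Their median member value was 9.26 and 8.33. Over 10188 genes above 5 in every sample, these 2 columns lay 0.10 and 0.12 below the mean of all 19. FS022 was above all 6 MEF samples for 32 of the 35 genes and FS023 for 25. FS022 lay within the range of the 5 iEpt+NAF grafts for 29 genes, and FS023 below that range for 25. No share over all genes is given beside these counts, so they do not show that the members differ from other genes. Zbp1, at 8.11 and 7.42, and Oas2, at 9.35 and 7.87, were above every prostate sample in both.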

How the data were processed

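Reads per gene were counted and normalized by the authors (DESeq), who deposited values on a log2 scale without replicate pooling. The submitters' processing notes name bcl2fastq 1.8.4, TopHat, Cufflinks and DESeq, and the assembly mm9. The step that gave the log2 scale is not given in the sources used here. Values at high levels equal whole reads, and lower ones carry scatter, so no count test was possible and depth was estimated from the steps of high values. Comparisons used limma (version 3.58.1, R 4.3.3, eBayes with trend) and the genes whose mean on the linear scale, over the samples of both groups, reached 10, with Benjamini-Hochberg adjustment over all of these. To pass, a gene needed an adjusted p below 0.05 and a log2 fold change of 1 or more in either direction. Scripts were tested on simulated data. Samples were grouped by the labels, and FS022 and FS023, normalized apart, entered no test. The study calls the 6 prostate samples independent. The sources do not say whether the MEF samples or grafts came from separate cultures or animals, so that p-values may measure technical spread. No 2 samples agreed within sampling noise. Sample values are given for the 5 members with the largest changes among those that passed without overlap in each comparison, and genes of the pathway lists are named for the 2 largest changes in each direction. The members and lists were chosen with earlier results of these data known. Further tools were Python 3.11.15, numpy 2.4.6, pandas 2.3.3 and matplotlib 3.10.9. Mb21d1, Ifi27 and Adgre1 of the lists were not found by name, and Emr1 was used for the last. Alternatives changed the added constant, filter, scaling, samples and fit. Dhx58, Zbp1, Mx1, Mx2, Oas2, Rtp4, Usp18, Parp9 and Parp14 had no promoter entry. Results of 1 gene of the receptor and kinase list are not reported here.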

Additional observations from a re-analysis of the deposited data

Results flagged for a closer look

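Among 105 sets of values (35 genes in 3 groups), 20 held a sample whose distance to its nearest neighbour took an unusually large share of the range of the group (Dixon's criterion). Chance alone flags about 1 in 20 sets, or 5.25, and the genes are not independent. Prostate FS013 was the highest of its group for 7 genes, at log2 values of Irf7 10.45 (next 8.99), Ddx58 10.39 (next 9.36), Ifi44 9.02 (next 6.48), Xaf1 8.57 (next 7.07), Parp9 10.40 (next 9.54), Psmb9 8.46 (next 7.81) and Tap1 10.13 (next 9.25). Graft FS007 was the highest of its group for 9 genes, at log2 values of Irf9 11.38 (next 10.11), Dhx58 9.73 (next 7.96), Zbp1 11.35 (next 8.99), Oas3 11.05 (next 8.15), Rtp4 10.98 (next 9.07), Parp9 11.45 (next 10.18), Gbp3 11.19 (next 9.16), Psmb8 11.98 (next 10.47) and Psmb9 11.03 (next 9.15). MEF FS019 was the lowest of its group for 1 gene, Oasl1, at a log2 value of -0.25 (next 2.57). MEF FS017 was the highest of its group for 3 genes, at log2 values of Ifi44 8.02 (next 5.14), Isg15 8.43 (next 6.56) and Parp9 9.05 (next 8.29).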

How the results depend on the processing

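Of 2130 refits of single members, 2056 kept direction and side of the threshold, 33 lost a call, 15 gained one and 26 changed sign, all 26 in differences that had not passed. Leaving out 1 sample gave 23 to 28 members that passed in prostate against MEFs, 32 to 33 in grafts against MEFs and 18 to 20 in prostate against grafts. With the MEF samples averaged in their 3 close pairs, 23 members passed as higher in prostate and 32 in grafts, Usp18 in prostate (1.56) lost its call, and 7029 and 5778 genes passed. Over all settings the ranges were 20 to 28, 29 to 33 and 13 to 21, the low ends with quantile scaling. That scaling also moved the share of called genes that were higher in grafts than in MEFs from 71.3% to 45.4%, and the medians of all genes to 0.01, -0.14 and 0.12 in the 3 comparisons, while 29 members still passed as higher in grafts. With no minimum fold change, 11772, 10573 and 9093 genes passed against 7026, 6757 and 5440. Sign changes, for which the cause was not tested, were as follows. Ddx58 in grafts against MEFs went to 0.00 without MEFs FS015 to FS018 and ranged from -0.34 to 0.08 without single samples. Ifit2 in that comparison went to -0.27 with quantile scaling, -0.25 without MEFs FS015 and FS020 and -0.16 without FS007, FS013 and FS017, and ranged from -0.25 to 0.28 without single samples. Oas3 in prostate against MEFs went to -0.27 with quantile scaling and -0.32 without MEFs FS015 to FS018, and ranged from -0.07 to 1.17 without single samples, and Zbp1 went to -0.30 with quantile scaling. In prostate against grafts, Cxcl10 went to 0.00 with 1 added to the linear value, 0.96 with quantile scaling, and ranged from -0.55 to 0.41 without single samples. With quantile scaling Dhx58 went to 0.13 and Mx2 to 0.88. Leaving out FS007, FS013 and FS017, and FS015 with FS020, was chosen after seeing the data. No paired analysis was possible because nothing in the labels ties samples of different groups to each other.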
